A study of Homo sapiens with 3 samples.

Results

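BCR and ABL1, the genes joined in the leukaemia from which HAP1 cells descend, were followed in lists of MATR3 contact sites. Members were all clusters whose deposited gene name is BCR or ABL1 with HAVANA or ENSEMBL as the annotation source. They numbered 7 of 115227 clusters over the 3 libraries. All 7 lay in introns of ABL1, 5 of them in wild-type replicate 1 (WT rep1) and 2 in wild-type replicate 2 (WT rep2). BCR had no cluster in any library, and neither gene had one in the knockout (KO) library.

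The libraries come from PAR-CLIP, in which 4-thiouridine in RNA is crosslinked to a bound protein and read as C, so that T-to-C changes mark contact sites. A cluster is a stretch covered by overlapping reads with such changes. HAP1 is an adherent, near-haploid line from the chronic myeloid leukaemia (CML) line KBM-7. The WT group is the parental HAP1 line with unaltered MATR3, with 2 libraries labelled as replicates. The KO group is a HAP1 line with MATR3 knocked out, bought from the same supplier and represented by 1 library, and its number of clones is not given. No drug or other treatment is named for either group. The labels name anti-FLAG beads for the immunoprecipitation in every library and record no FLAG tag. They do not say whether the WT replicates came from separate cultures, so the spread between them may be technical.

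ABL1 encodes a tyrosine kinase that moves between cytoplasm and nucleus, and BCR encodes a protein with an oligomerisation domain and domains that act on small GTPases. In CML a translocation between chromosomes 9 and 22 puts the 5′ part of BCR in front of the 3′ part of ABL1, and the fusion kinase is constantly active. ABL1 transcripts start at alternative first exons separated by a very long intron, and the break in ABL1 usually falls upstream of the exons that encode the kinase domain. MATR3 is a nuclear matrix protein with RNA recognition motifs that binds pyrimidine-rich intronic RNA and takes part in splicing. The tables do not show which parts of BCR and ABL1 are joined in these cells, and the positions used here are those of the unrearranged genes.

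WT rep1 listed 87230 clusters with 2668797 reads, WT rep2 listed 27155 with 1558995, and KO listed 842 with 224142. The targeted gene MATR3 had 53 clusters in WT rep1, 26 in WT rep2 and 0 in KO. Genotypes were compared without a test, since KO has 1 library. Of all protein-coding genes in a RefSeq list, 2.86% had a KO cluster, so the lack of a KO cluster in BCR and ABL1 is what most genes showed. The tables hold called clusters and not RNA levels, so a transcript that was not made and one that was not bound cannot be told apart.

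The sequences of the ABL1 clusters are shown because each is the RNA stretch behind a member, written 5′ to 3′ in the sense of the transcript with T for U. Capitals mark the pyrimidine-rich words ATCTT, then TTCTT and then CTTCT, the first of which is a reported MATR3 binding word. The coordinates are those of the tables (hg38 per the submitters' processing notes), on the plus strand.
WT rep1, chr9:130726493-130726524: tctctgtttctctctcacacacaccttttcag
WT rep1, chr9:130727171-130727204: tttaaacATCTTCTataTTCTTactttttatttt
WT rep1, chr9:130730938-130730970: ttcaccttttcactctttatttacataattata
WT rep1, chr9:130740543-130740576: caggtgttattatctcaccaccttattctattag
WT rep1, chr9:130770950-130770982: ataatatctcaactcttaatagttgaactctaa
WT rep2, chr9:130730938-130730971: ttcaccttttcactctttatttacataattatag
WT rep2, chr9:130793329-130793362: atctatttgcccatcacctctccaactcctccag

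The third and the sixth of these sequences are the same site, found in both WT libraries. They start at the same base and share 33 nt, and the copy from WT rep2 is longer by the final g. The ends of the reads at this site differed little, since 96.6% of them in WT rep1 and 100% in WT rep2 ended in G. Over all clusters the libraries differed, with a median share of reads ending in G of 0% in WT rep1 and 93.3% in WT rep2. RNase T1, used to trim the RNA, cuts after G. In WT rep1 2 of 5 ABL1 clusters ended in G, beside 73.5% of all its clusters, and in WT rep2 both did, beside 94.4%. No G before the last base was found in 2 of 5 and 1 of 2, beside 35.1% and 43.2% of all clusters.

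Along ABL1 the clusters occupied the upstream part of the gene. The RefSeq interval of ABL1 on chromosome 9 runs from 130713043 to 130887675 (GRCh38.p14), a length of 174.6 kb. A downstream start listed for ABL1 in the RefSeq promoter table lies 122.2 kb into this interval, at 70.0% of its length. In WT rep1 the cluster centres lay 13.5, 14.1, 17.9, 27.5 and 57.9 kb from the upstream end. In WT rep2 they lay 17.9 and 80.3 kb from it. All 7 were therefore upstream of the downstream start, in RNA that only a transcript begun before it contains, and the nearest was 41.9 kb short of it. The annotation class of all 7 was intron, the class of 84.1% of all clusters of WT rep1 and 83.1% of WT rep2. Exon positions were not analysed here, so the intron is not numbered.

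**Figure D1:**
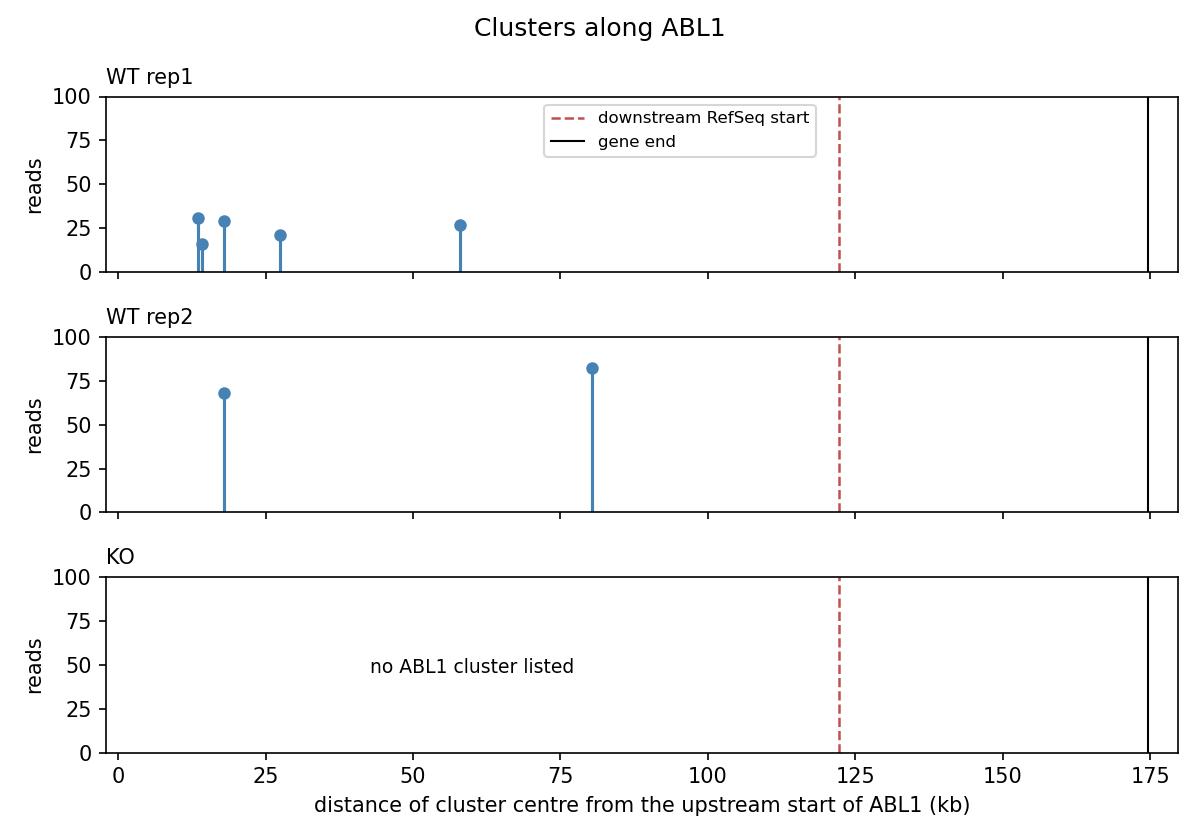
Reads in each ABL1 cluster (vertical axis, read count) against the distance of its centre from the upstream start of the gene (horizontal axis, kb), with 1 panel per library. The clusters of WT rep1 lie between 13.5 and 57.9 kb and those of WT rep2 at 17.9 and 80.3 kb, all left of the dashed line at 122.2 kb that marks the downstream RefSeq start; the solid line is the gene end, and KO has none.

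Between 46.0% of the gene's length, where the farthest cluster lay, and its 3′ end no cluster was listed in any library. This stretch holds the part of ABL1 that encodes the kinase. Without WT rep2 the farthest cluster lay at 33.2%. Position toward the 5′ end was common among genes of like size. Of the clusters in other protein-coding genes of 100 to 200 kb, 62.0% in WT rep1 and 58.7% in WT rep2 lay in the first 50% of their gene, against all 5 and both ABL1 clusters. The 95% exact intervals of the ABL1 shares, 47.8 to 100% in WT rep1 and 15.8 to 100% in WT rep2, include these values.

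The ABL1 clusters were spread unevenly. The first 3 of WT rep1 lay within 4.45 kb of each other, while the last was 30.4 kb from its neighbour. The second cluster of WT rep2 also lies within the RefSeq interval of LOC124902288, an uncharacterised long non-coding RNA gene whose strand the table does not give. The other 6 clusters lie in no RefSeq gene interval but that of ABL1. On the minus strand ABL1 had no cluster.

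Read counts of the members ran from 16 to 82. In WT rep1 the 5 clusters had 31, 16, 29, 21 and 27 reads in their order along the gene, and in WT rep2 the 2 clusters had 68 and 82. The 5 ABL1 clusters of WT rep1 thus all had fewer reads than the 2 of WT rep2. Over all clusters the medians ran the same way, at 20 and 39 reads. The ranges over all clusters overlapped, with a minimum of 5 reads in both libraries. Within their own libraries the ABL1 clusters were ordinary, with more reads than 36.9% to 70.1% of the clusters of WT rep1 and than 68.1% and 75.7% of those of WT rep2.

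Distinct read sequences behind the clusters were few. They numbered 3, 1, 3, 1 and 6 in WT rep1 and 3 and 2 in WT rep2, where the median over all clusters was 3 in both libraries. The clusters centred at 14.1 and 27.5 kb thus each rest on a single read sequence, which was the case for 15.0% of all clusters of WT rep1. Reads carry no molecular identifiers in these tables, so copies of 1 molecule cannot be told from separate molecules.

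Summed over the gene, ABL1 had 124 reads in clusters in WT rep1 and 150 in WT rep2, a mean of 137 ± 18.4 (SD, n = 2). Scaled to 1000000 cluster reads per library these were 46.5 and 96.2, a mean of 71.3 ± 35.2 (SD, n = 2). The number of clusters was 5 and 2, a mean of 3.50 ± 2.12 (SD, n = 2). ABL1 held 0.00573% of the clusters of WT rep1 (95% exact Clopper-Pearson interval 0.00186 to 0.0134%) and 0.00737% of WT rep2 (0.000892 to 0.0266%). These intervals cover counting error only, and they overlap. By reads ABL1 ranked 4059 among 9189 genes with a cluster in WT rep1 and 2653 among 6043 in WT rep2, above 55.6% and 55.9% of those genes. ABL1 thus stood near the middle of the genes with clusters in both libraries.

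Agreement between the WT libraries came down to the site centred 17.9 kb into the gene. It was 1 of 2 ABL1 clusters of WT rep2 and 1 of 5 of WT rep1. Over all clusters, 19.5% of WT rep2 overlapped WT rep1 and 6.00% of WT rep1 overlapped WT rep2, with 1 shared nt on 1 strand as the minimum. Among clusters with as many reads as the ABL1 clusters, 21.1% of those with 68 to 82 reads in WT rep2 and 4.08% of those with 16 to 31 reads in WT rep1 were shared. The exact intervals of the ABL1 shares, which treat clusters of 1 gene as independent, were 1.26 to 98.7% for WT rep2 and 0.505 to 71.6% for WT rep1. They include the shares over all clusters and over clusters with as many reads. Agreement in ABL1 could therefore not be distinguished from that of all clusters at this depth.

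The other clusters had no near partner. The cluster at 80.3 kb, the strongest ABL1 cluster of WT rep2, was 22.3 kb from the nearest cluster of WT rep1. Those of WT rep1 at 13.5 and 14.1 kb lay 4.41 and 3.73 kb from the nearest cluster of WT rep2, and the ones at 27.5 and 57.9 kb lay 9.57 and 22.3 kb away.

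Conversion at the members was close to that of the libraries. Clusters are defined by such changes and none listed had fewer than 2 converted positions, so their presence is no separate result. Reads with a T-to-C change made up 96.8%, 100%, 96.6%, 100% and 85.2% of the clusters of WT rep1 in order along the gene, against a median of 94.1% over all its clusters. In WT rep2 they made up 97.1% and 100%, against 97.5%. Of the T positions read, 160 of 1838 were converted in the ABL1 clusters of WT rep1 (8.71%) and 152 of 1976 in those of WT rep2 (7.69%), beside 7.98% and 7.55% in all clusters. At the site found in both libraries the converted share of T was 5.88% in WT rep1 and 5.97% in WT rep2, the lowest of the ABL1 clusters in each. The highest was 14.3%, in the WT rep1 cluster at 27.5 kb that rests on 1 read sequence.

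Every ABL1 cluster had exactly 2 converted positions, the smallest number in the tables. Clusters at this minimum made up 60.2% of WT rep1 and 74.9% of WT rep2. With a minimum of 3 converted positions no ABL1 cluster was left in either library.

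Pyrimidines made up 69.3% of the ABL1 cluster sequence in WT rep1 and 72.1% in WT rep2, close to the 68.0% and 68.7% of all clusters. The split into T and C differed between the ABL1 sequences of the 2 libraries, which are few and share 1 site. In WT rep2 the cluster at 80.3 kb held 10 T and 15 C, and the shared site 17 T and 7 C. In the 5 sequences of WT rep1 T was 46.4% and C 22.9%, beside 40.1% and 27.9% in all its clusters, whereas in the 2 of WT rep2 T was 39.7% and C 32.4%, beside 41.8% and 26.9%. G was 4.82% and 4.41% of the ABL1 clusters and 10.1% and 9.99% of all clusters. The sequences differed from one another, with T between 29.4% in the C-rich cluster at 80.3 kb and 61.8% in the cluster at 14.1 kb. The site shared by the libraries had no G before its last base and was 51.5% T in the form of WT rep1.

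The words ATCTT and TTCTT and the word CTTCT, searched on the transcript strand, all occurred in a single ABL1 cluster, the one at 14.1 kb, where ATCTT and CTTCT overlap. Among clusters of 32 to 34 nt, the lengths of the members, ATCTT occurred in 13.8% in WT rep1 and 15.1% in WT rep2. TTCTT occurred in 28.8% and 30.4%, and CTTCT in 21.3% and 23.1%. At least 1 of the 3 words occurred in 46.1% and 48.3% of them, against 1 of 5 and 0 of 2 ABL1 clusters.

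BCR was at 0 in every library. Its RefSeq interval on chromosome 22 runs from 23180509 to 23318037 (GRCh38.p14), a length of 137.5 kb. No cluster of any name lay inside this interval on either strand in WT rep1, WT rep2 or KO, so the count does not depend on the authors' choice of gene name. The tables list clusters above a minimum only, so 0 is no measure of how little RNA was bound.

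Length gives a scale for both genes. Of 1957 protein-coding genes of 100 to 200 kb, 68.6% had a cluster in WT rep1, 57.1% in WT rep2 and 55.7% in both, as ABL1 did. BCR was among the 588 of them, 30.0%, that had none in either WT library. These shares go by gene name, so a gene whose clusters carry another name counts as having none. The joint entry RPS10-NUDT3 had 0 and 0 clusters, for example, and NUDT3 had 18 and 14. The share without a cluster may therefore be too high. The median of the class was 4 clusters in WT rep1 (quartiles 0 and 15) and 1 in WT rep2 (quartiles 0 and 5). ABL1, at 5 and 2, lay just above both medians. The length class was chosen after the counts of both genes were known.

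**Figure D2:**
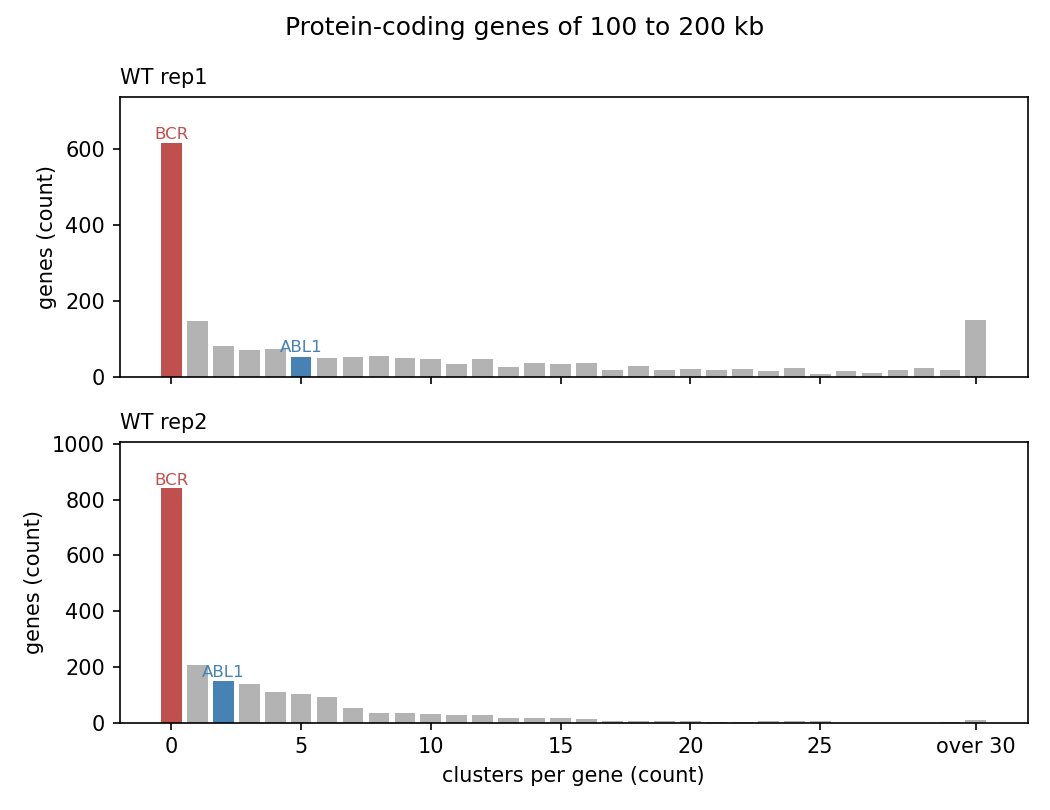
Number of protein-coding genes of 100 to 200 kb (vertical axis) by their clusters per gene (horizontal axis, with genes over 30 joined in the last bar), for each WT library. The red bar at 0 holds BCR with 614 genes in WT rep1 and 840 in WT rep2, and the blue bar holds ABL1 at 5 and 2 clusters.

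The paralogs were compared because each shares domains with its partner. ABL2, the other kinase of the ABL family, on chromosome 1, had 20 clusters with 589 reads in WT rep1 and 13 with 561 reads in WT rep2. ABL1 had fewer clusters and fewer reads than ABL2 in both libraries. Per 100 kb of gene the density of clusters was 15.3 and 9.97 in ABL2 and 2.86 and 1.15 in ABL1. Of the ABL2 clusters 18 and 11 were intronic and 2 in each library lay in the 3′ UTR, a class not seen in ABL1. In the first 50% of ABL2 lay 16 of 20 and 10 of 13 clusters, and 2 clusters of WT rep2 overlapped WT rep1.

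ABR, the paralog of BCR on chromosome 17 with the same type of GTPase-regulating domains, also had no cluster in any library. The same held for 56.6% of all protein-coding genes, which were not matched on length. KO had no cluster in ABL2 either.

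A list of 25 genes of BCR-ABL1 signalling was examined next, made up of adaptors, exchange factors, kinases and downstream effectors that act with the fusion kinase. Of these, 20 had a cluster in WT rep1 and 16 in WT rep2, beside 41.4% and 28.1% of all protein-coding genes, and all 16 were among the 20. Clusters in both WT libraries were thus found in 16 of 25 genes, or 64%, beside 26.2% of all protein-coding genes, which were not matched on length. This is agreement by gene and not by site. By position, 11 of the list's 66 clusters in WT rep2 (16.7%) overlapped a WT rep1 cluster, beside 19.5% of all WT rep2 clusters. The list's median was 7 clusters in WT rep1 and 2 in WT rep2, against medians of 0 over all protein-coding genes. Introns held 242 of the list's 251 clusters in WT rep1 and 63 of 66 in WT rep2. Over all clusters, which unlike those of the list include clusters outside genes, the intron shares were 84.1% and 83.1%. ABL1 lay below the list's median in WT rep1 and at it in WT rep2.

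Among adaptors, GAB2, a docking protein needed for transformation by the fusion, had the most clusters and reads. It had 61 clusters and 2012 reads in WT rep1 and 14 clusters and 744 reads in WT rep2. GRB2, which links the BCR part of the fusion to RAS signalling, had 9 and 2 clusters. CRKL, an adaptor and major substrate of the fusion kinase, had 11 and 3. NCK1 had 8 and 7, and SHC1 had 4 and 1. GAB2 is a long gene of 202.5 kb, and by density it was not the highest. Per 100 kb SHC1 had 33.1 and 8.28 clusters, CRKL 30.3 and 8.26, and GAB2 30.1 and 6.91. GRB2 had 10.3 and 2.28 and NCK1 8.95 and 7.83. Clusters in ABI1 and ABI2, which bind ABL kinases and regulate actin, numbered 26 and 4 in ABI1 and 13 and 2 in ABI2. The 7 genes just named all had more clusters in WT rep1 than in WT rep2, as the whole library did.

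SOS1, the exchange factor that activates RAS, had 23 and 6 clusters, and RAPGEF1, which activates RAP1, had 14 and 5. The ubiquitin ligases CBL and CBLB had 12 and 6 and 5 and 2. CBLB had the same numbers of clusters as ABL1. Kinases and phosphatases with clusters in both libraries were JAK2 with 11 and 2, PIK3CA, a catalytic subunit of PI3-kinase, with 14 and 2, and the phosphatase PTPN11 with 6 and 3. STAT5B, a transcription factor activated by the fusion, had 2 clusters in each library, with 115 and 344 reads. The anti-apoptotic gene BCL2L1 had 7 and 5.

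CRK, PIK3R1, RAC1 and SOS2 had clusters in WT rep1 only. The list genes without a cluster in any library were DOK1, FGR, INPP5D, RIN1 and STAT5A, 5 of 25. Of all protein-coding genes 56.6% had none. FGR and INPP5D are known mainly from blood cells, and RIN1 and DOK1 are short, at 6.53 and 8.45 kb. Whether expression or length bears on their lack of clusters was not tested. In KO, 2 of the 25 list genes had a cluster, beside 2.86% of all protein-coding genes, which were not matched on length. CRKL had 1 intronic cluster of 235 reads and SOS1 had 1 of 399 reads, where the median over all KO clusters was 243. Neither overlapped a WT cluster, and of all 842 KO clusters 6.53% overlapped one in either WT library.

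**Figure D3:**
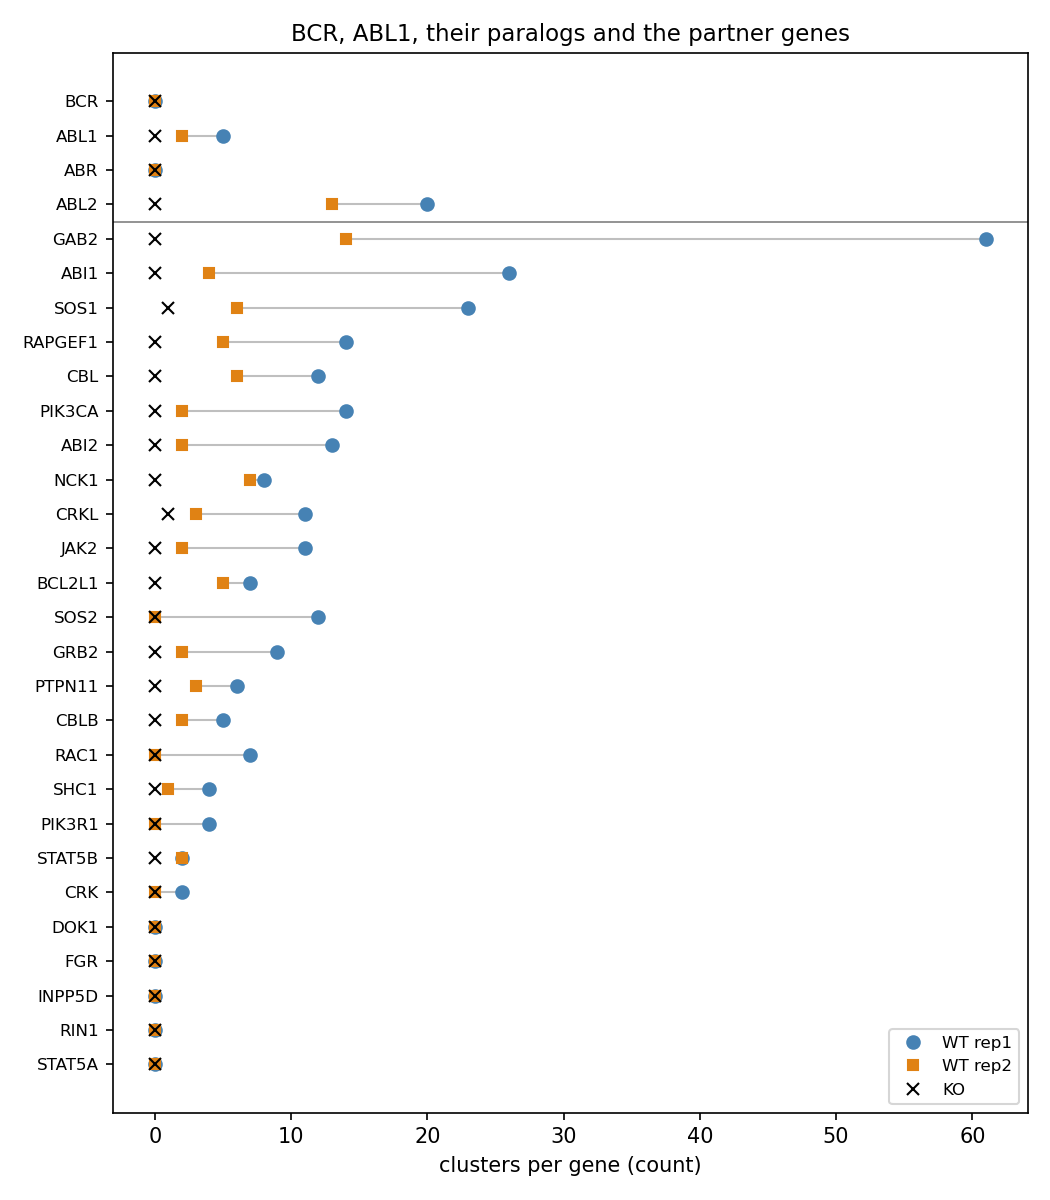
Clusters per gene (horizontal axis, count) in WT rep1 (circles), WT rep2 (squares) and KO (crosses), for BCR, ABL1 and their paralogs above the line and for the 25 partner genes below it. GAB2 reaches 61 and 14 clusters, ABL1 lies at 5 and 2, and BCR and ABR lie at 0 in every library.

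The labels give a leukaemic origin, and 8 markers of blood cells were looked up. PTPRC, SPN, CD34, CD33, ITGAM, GATA1 and SPI1 had no cluster in any library, as was the case for 56.6% of all protein-coding genes, which were not matched on length. KIT had 2 intronic clusters with 76 reads in WT rep1 and none elsewhere. Clusters are not expression levels, so these counts do not settle the cell type.

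The genes nearest to ABL1 in their reads over the 3 libraries were LAP3, FAM118A and CGRRF1. Likeness was the Euclidean distance of log2(scaled reads + 1), with reads scaled to 1000000 per library, which was 0.050, 0.054 and 0.061. LAP3 had 120 and 148 reads, FAM118A had 120 and 153, and CGRRF1 had 119 and 152, with none in KO, where ABL1 had 124 and 150. For BCR, at 0 throughout, the measure returned 93 genes tied at 1 cluster of 5 reads in WT rep1, which are not named.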

How the data were processed

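The authors deposited, per library and not pooled, clusters with counts of reads, distinct reads and converted and unconverted T events, as whole numbers with no normalisation per the file headers. For each cluster the deposited tables also hold, as a fraction, how many of its reads show conversion or end in G. The 2 deposited score columns were not used. The submitters' processing notes list cutadapt 1.8.3, Bowtie 1.1.2, hg38 and GRCh38.p5; the cluster caller and its filters are not given in the sources used here. The weakest clusters had 5 reads and 2 converted positions. Sequencing depth is unknown.

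Clusters kept the authors' gene names and classes. Gene intervals and starts came from RefSeq tables of GRCh38.p14, whose chromosome coordinates are those of hg38; names matched for 8688 of 9189 genes (WT rep1), 5815 of 6043 (WT rep2) and 600 of 619 (KO). Overlap needed 1 nt on the same strand. The code for this rule was right for 100% of 2000 simulated clusters, which checks the code and not the agreement of the libraries. Analyses used Python 3.11.15, pandas 2.3.3, numpy 2.4.6 and scipy 1.17.1. Alternatives were minima of 10 reads or 3 converted positions, other overlap rules, gene intervals in place of names, cluster starts and leaving out each WT library. Named are the members, paralogs, list genes with clusters, the 3 genes nearest in reads and the largest or shared clusters; the list genes in 1 or no library, the remaining ABL1 clusters and the neighbouring genes were named after their values were seen. Members and lists were chosen with earlier results of these data known. Of the listed partner genes, 1 is not reported here and is in no count of the list.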

Additional observations from a re-analysis of the deposited data

How the results depend on the processing

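No paired analysis was possible because the KO library carries no replicate number and no result comes from a test. Of 31 alternative values, 26 stayed within the limits set (1.5 times for a count, 1 SD of the WT libraries for other values), among them the 0 clusters of BCR under every alternative run. A minimum of 3 converted positions left 0 ABL1 clusters and 0 ABL1 reads, since each had 2, so that class, position, conversion and agreement had no value there; 8 partner genes in place of 16 then had clusters in both WT libraries. The mean of 3.5 ABL1 clusters became 2 without WT rep1 and 5 without WT rep2. The farthest ABL1 cluster lay at 33.2% of the gene without WT rep2 and at 46.0% without WT rep1. With 7 clusters and 274 reads, shares within ABL1 carry wide intervals.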

Other observations

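The surroundings of both genes were examined after their counts were seen. EXOSC2, an RNA exosome subunit gene directly upstream of ABL1, had 4 clusters with 125 reads in WT rep1 and 1 with 87 reads in WT rep2, in a gene of 11.1 kb, so its density per 100 kb was 35.9 and 8.98 beside 2.86 and 1.15 in ABL1. FUBP3, a single-stranded nucleic acid binding protein gene farther upstream, had 11 and 3 clusters. Downstream of ABL1 the next cluster of either strand lay 235.3 kb beyond the gene end in WT rep1 and 232.7 kb in WT rep2, both in AIF1L.

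Around BCR, clusters were sparse. In WT rep1 the nearest upstream cluster lay 863.5 kb away, in BMS1P20, and the nearest downstream cluster 10.3 kb away, an exonic cluster of 11 reads in the long non-coding RNA AP000343.2. In WT rep2 the distances were 1200.3 kb, to TOP3B, and 382.8 kb, to GUSBP11. Chromosome 22 as a whole held 1552 clusters in WT rep1 and 478 in WT rep2.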
